A study of Sus scrofa with 12 samples.

Results

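The nuclear genes of oxidative phosphorylation were compared between Luchuan and Duroc pigs by the accessibility of their chromatin in longissimus dorsi muscle. Members were all protein-coding genes of the Sscrofa11.1 annotation whose symbols begin with NDUFA, NDUFB, NDUFC, NDUFS, NDUFV, UQCR, COX4I, COX5, COX6, COX7, COX8 or ATP5, or equal SDHA, SDHB, SDHC, SDHD, CYC1 or CYCS, without the NDUFAF assembly factors. This gave 71 of 19550 protein-coding genes on chromosomes 1 to 18, X and Y, and 193 of 140081 accessible regions whose midpoint lay in such a gene or within 2 kb of it. The animals were boars aged 180 days, 3 of each breed, kept under the same feeding conditions and fasted overnight before slaughter. The Duroc is a lean breed and the Luchuan an obese Chinese breed, and no agent or genetic change was applied to either. The transposase assay (ATAC-seq) cuts accessible DNA, so reads pile up where chromatin is open. The deposited table holds 1 read count per region and breed, so single boars cannot be seen, the spread between animals is unknown, and no p-value is given.

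Oxidative phosphorylation is the final stage of aerobic energy production in mitochondria. Complexes I and II pass electrons from NADH and succinate to ubiquinone, complex III passes them on to cytochrome c, complex IV reduces oxygen, and complex V (ATP synthase) makes ATP from the proton gradient that complexes I, III and IV build. Most subunits are encoded in the nucleus, some in the mitochondrial genome, and oxidative muscle fibers hold more of these complexes than glycolytic fibers. The nuclear genes are used in nearly all cells, and several subunits of complex IV have separate forms for heart and skeletal muscle. Some pig genes carry older symbols here, such as ATP5A1 and ATP5B for the alpha and beta subunits of ATP synthase, and COX8H for the heart and muscle form of subunit 8. Among others, the symbols matched no gene COX4I1, COX4I2, COX5A, COX6A2, COX7A2L, COX7B, CYC1, UQCRC1, UQCRC2, UQCRFS1, UQCRH, UQCRQ or UQCR11. These were not analysed here. ATP5S and ATP5SL match by symbol but are not core subunits of ATP synthase, and NDUFA4 and NDUFA4L2 were counted with complex IV, to which the NDUFA4 protein belongs.

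The regions held 20759894 Duroc reads and 13746020 Luchuan reads. Ratios are given as log2 of Luchuan over Duroc reads, with 1 added to each count and the Luchuan reads multiplied by 1.48, the factor that sets the median over all regions to 0. A positive value is therefore higher in Luchuan than the typical region. Values in brackets are 95% Clopper-Pearson intervals, which cover counting error only, since reads are not independent molecules and animals may differ. Of 8 skeletal muscle fiber markers, 7 were found by symbol, and each had accessible regions, with 2672 reads or more per gene over both breeds. Markers of other cell types had fewer. Adipocyte markers had 45 to 180 reads in the 3 of 5 genes with any region, CIDEC and FABP4 having none, and a summed log2 ratio of 0.02 (-0.28 to 0.32). Endothelial markers had 132 to 847 reads in 3 of 4 genes, CDH5 having none, and a ratio of 0.06 (-0.12 to 0.23). Blood and immune markers ranged from 34 to 1284 reads and fibroblast markers from 92 to 1337, with ratios of -0.01 (-0.14 to 0.11) and 0.07 (-0.06 to 0.20), and markers of other tissues from 72 to 754 reads in 3 of 4 genes, ALB having none, with a ratio of 0.27 (0.11 to 0.43). Single genes of these lists did not all follow the sums. Summed intervals lay above 0 for TEK and KDR (endothelium), CD3E (blood), COL3A1 (fibroblasts) and SFTPC (other tissues). That of PTPRC (blood) lay below 0, and those of the other genes with a region included 0. PECAM1, SPI1, PDGFRA and APOA1 held most reads of these 4 lists, so near-equal sums do not show that a cell type was balanced. In whole muscle, fewer nuclei of a type and less open chromatin per nucleus cannot be told apart.

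Every oxidative phosphorylation gene had at least 1 accessible region, as did 81.5% of all protein-coding genes. In most of them a broad region at a gene end held nearly all of the reads. A total of 31 genes had a single region, and in 52 of the 71 the region with the most reads, called the strongest region below, held over 80% of the reads of the gene. The strongest region spanned an end of the gene, the place of either the promoter or the transcript's end, in 68 of 71 genes (95.8%), against 53.1% of the 15924 genes with any region and 68.6% of the genes whose strongest region had at least 761.5 reads, the lower quartile of the members. The strand is missing from the annotation used here, so the ends were not told apart. The exceptions among the members were NDUFS6, ATP5D and ATP5G2. Other lists came closer to the members. The share was 86.7% for the 30 assembly factors, 83.3% for 78 cytosolic ribosomal protein genes and 79.5% for 39 proteasome subunit genes. Members are also shorter, with a median length of 7623 bases against 20650.5 over all protein-coding genes. The part of gene length in this share was not tested. All 71 strongest regions had been detected as peaks in both breeds, against 90.1% over all genes and 9002 of the 9005 genes with at least 761.5 reads there. This was also so for 100% of the assembly factors and ribosomal protein genes and 97.4% of the proteasome subunit genes. Of all 193 regions, 136 were common to both breeds, 41 were detected in Duroc alone and 16 in Luchuan alone, against 49.1%, 31.8% and 19.1% of all regions. Per length, the strongest regions of the members had a median of 1079 reads per kb, which was the 55.1st percentile of all genes. Members ranged from NDUFA1 at the 27.4th to ATP5S at the 99.0th. The genes with at least 761.5 reads in their strongest region had a higher median, 1259 reads per kb (71.2nd percentile). Assembly factors, ribosomal protein genes and proteasome subunit genes had medians of 1200, 1116 and 1155.

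**Figure D1:**
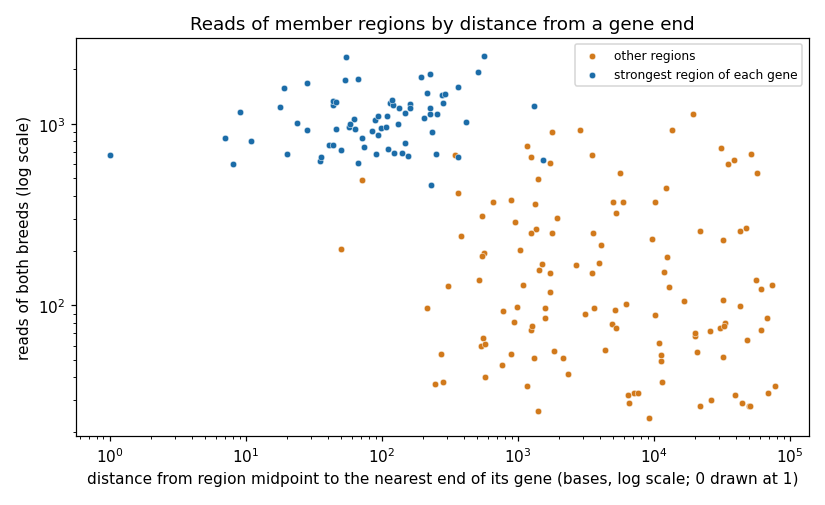
Each point is 1 of the 193 regions of oxidative phosphorylation genes, with the distance from its midpoint to the nearest end of its gene on the x axis (bases, log scale) and its reads over both breeds on the y axis (log scale). The 71 strongest regions (blue) lie at a median distance of 99 bases and hold 459 to 2361 reads. The 122 other regions (orange) lie at a median distance of 4240 bases and hold 24 to 1134 reads. Without those of the long gene ATP5SL, the median distance of the other regions is 1794 bases.

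The strongest regions were nearly equally accessible in the 2 breeds. Their median log2 ratio was 0.10, with an interquartile range of -0.01 to 0.15 and extremes of -0.60 and 0.34, and none of them reached a 2-fold difference. They were higher in Luchuan for 52 genes and higher in Duroc for 19, relative to the typical region. Over all genes the median was 0.05 and 59.1% were higher in Luchuan, and over the genes whose strongest region had at least 761.5 reads the median was 0.06 and 65.7% were higher in Luchuan. Counting error left most of these differences unresolved. The interval lay above 0 in 16 of the 71 genes, against 21.5% of the strongest regions of all genes, and below 0 in 3, against 13.4%. Without scaling, all 71 strongest regions had more Duroc reads, and with a factor that follows the signal (the median ratio of all regions with like counts) 48 were higher in Luchuan and 23 in Duroc. Summed over all regions of a gene, no member differed 2-fold or more, and 3.64% of all genes with a region did. These were not matched on reads, since each member had at least 556 reads and other genes went down to 5.

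**Figure D2:**
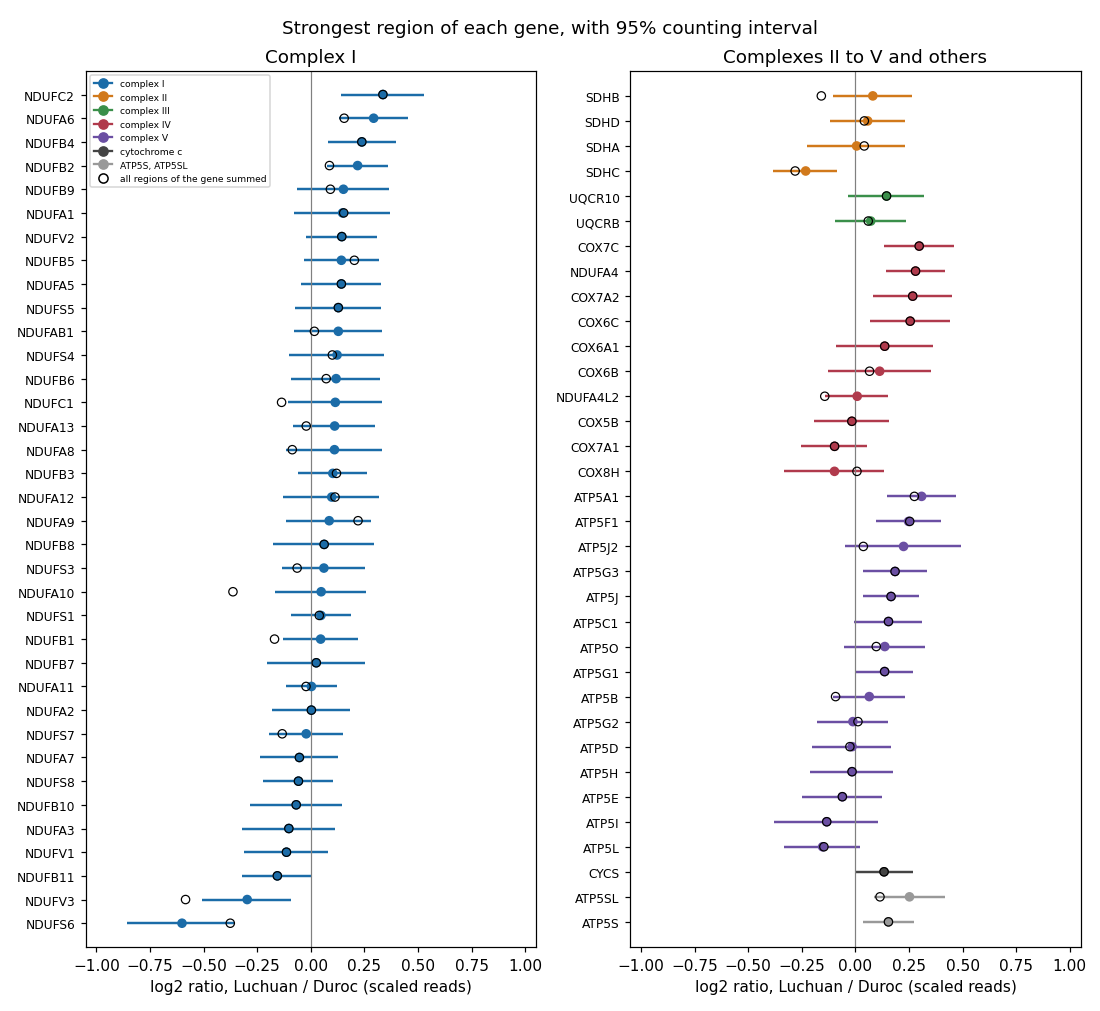
Each row is 1 gene, 1 gene of complex I not being drawn, with the log2 ratio of Luchuan over Duroc reads on the x axis after scaling. Filled points are the strongest region with its 95% counting interval, open circles are all regions of the gene summed, and colors mark the complexes. Strongest regions lie between -0.60 (NDUFS6) and 0.34 (NDUFC2), and the open circles of NDUFA10, NDUFV3 and SDHB lie well to the left of their filled points.

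Complex I, the NADH dehydrogenase, had 37 genes and 97 regions with 18308 Luchuan and 27194 Duroc reads. After scaling, the summed log2 ratio was -0.00047 (-0.03 to 0.03), so the sum was equal in the 2 breeds within counting error. Its parts differed in direction. The strongest regions had a median of 0.10, with 28 above 0 and 9 below. The 60 other regions had a median of -0.18, with 25 above 0 and 35 below. Counted with regions within 5 kb, the sum was -0.036, more in size than the 0.027 from the value to its interval's bound. NDUFA11, a subunit of the membrane arm, had the most reads of complex I. Its 3 regions held 1026 Luchuan and 1548 Duroc reads, a log2 ratio of -0.02 (-0.14 to 0.09).

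NDUFV3, an accessory subunit of the NADH-oxidizing module, had the lowest summed ratio of complex I, -0.58 (-0.75 to -0.43), from 471 Luchuan and 1050 Duroc reads. All of its 3 regions were lower in Luchuan. The region at the gene end, on chromosome 13 from 206110954 to 206111734, had 295 Luchuan and 539 Duroc reads, a log2 ratio of -0.30 (-0.51 to -0.09). The region inside the gene from 206121882 to 206122625 had 167 and 443 reads, a log2 ratio of -0.83 (-1.10 to -0.58), and its narrow neighbour from 206122630 to 206122782 had 9 and 68 reads, a log2 ratio of -2.22 (-3.54 to -1.34). This neighbour was detected as a peak in Duroc alone, and the other regions of the gene in both breeds. The ratio was thus below 0 in all 3 regions, and the intervals of both regions inside the gene lay below that of the gene end.

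The lowest strongest region of all members belonged to NDUFS6, an accessory subunit that carries zinc. This region lay outside the gene, 1522 bases from its end, on chromosome 16 from 79001187 to 79001859, and also within 2 kb of MRPL36, a mitochondrial ribosomal protein gene, as is the other region of NDUFS6. It had 193 Luchuan and 436 Duroc reads, a log2 ratio of -0.60 (-0.86 to -0.36). The region that spans the end of NDUFS6 itself had 189 and 301 reads, and its log2 ratio of -0.10 (-0.37 to 0.17) was not distinguishable from 0. NDUFA10, an accessory subunit of the membrane arm, also had its lower values outside the region that spans a gene end, but there that region was the strongest. Its strongest region, at the gene end on chromosome 15 from 139031414 to 139032453, had 313 and 450 reads, a log2 ratio of 0.05 (-0.17 to 0.26). The other 6 regions were all lower in Luchuan, down to -0.92 in a region outside the gene, 576 bases from its other end. However, 4 of these 6, the lowest among them, were detected as peaks in Duroc alone, so their direction cannot be told apart from their detection. The strongest of the 6, inside the gene from 139004488 to 139005129, was detected in both breeds. It had 157 and 377 reads, a log2 ratio of -0.69 (-0.97 to -0.42). NDUFS4, the longest complex I gene, had 16 regions, of which 10 were above 0 and 6 below, and its region at the gene end stood at 0.12 (-0.10 to 0.34).

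At the gene end, intervals above 0 in complex I included those of NDUFA6, NDUFB2, NDUFB4 and NDUFC2. NDUFC2, an accessory subunit of the membrane arm, was the highest strongest region of all members, with 413 and 486 reads, a log2 ratio of 0.34 (0.14 to 0.53). This value stayed above 0 under each rescaling, and fell to -0.23 only in unscaled reads. The X chromosome, of which boars carry 1 copy, has 2 members. NDUFA1 had 290 Luchuan and 389 Duroc reads in its strongest region, a log2 ratio of 0.15 (-0.08 to 0.37), and NDUFB11 had 486 and 805 reads, a log2 ratio of -0.16 (-0.32 to 0.01). Both intervals included 0. The median strongest region of X genes was -0.07.

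Complex II, the succinate dehydrogenase that also belongs to the citric acid cycle, was the only complex whose summed interval lay below 0. Its 4 genes and 14 regions had 2578 Luchuan and 4207 Duroc reads, a log2 ratio of -0.14 (-0.21 to -0.07). The value came from SDHB and SDHC. SDHC, which with SDHD anchors the complex in the inner membrane, had 628 Luchuan and 1134 Duroc reads over 2 regions, a log2 ratio of -0.28 (-0.43 to -0.14). Its broad region at the gene end, on chromosome 4 from 89168030 to 89169571, had 581 and 1014 reads, a log2 ratio of -0.23 (-0.38 to -0.08). SDHC stayed below 0 under every scaling.

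SDHB, the iron-sulfur subunit, had the most reads of complex II, 1198 Luchuan and 1987 Duroc over 8 regions. Summed, its log2 ratio was -0.16 (-0.26 to -0.06), but the region at the gene end had 415 and 583 reads, a log2 ratio of 0.08 (-0.11 to 0.26). The other 7 regions were all below 0. Of these, the region inside the gene on chromosome 6 from 75673800 to 75674189 had 44 Luchuan and 172 Duroc reads, a log2 ratio of -1.37 (-1.91 to -0.91). It is 1 of 2 SDHB regions that were detected as peaks in Duroc alone. SDHA, the flavoprotein that oxidizes succinate, and SDHD both had summed ratios of 0.04, with intervals of -0.19 to 0.26 and -0.13 to 0.21. Limited to regions within 2 kb of a gene end, the summed log2 ratio of complex II was -0.05, less in size than the 0.071 from the value to its interval's bound, and over gene bodies alone it was -0.23.

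Complex III was represented by UQCR10 and UQCRB, both small subunits without a redox center. UQCRB had 543 Luchuan and 774 Duroc reads, a log2 ratio of 0.06 (-0.10 to 0.22), and UQCR10 had 457 and 614 reads, a log2 ratio of 0.15 (-0.03 to 0.32). Together they gave 0.10 (-0.02 to 0.22). CYCS, which encodes the electron carrier cytochrome c, had a single region with 771 Luchuan and 1044 Duroc reads, a log2 ratio of 0.13 (-0.003 to 0.27). None of these genes was distinguishable from 0.

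Complex IV, the cytochrome c oxidase, had 10 genes and 19 regions with 5770 Luchuan and 8186 Duroc reads, a log2 ratio of 0.07 (0.02 to 0.11). COX7C, COX7A2, COX6C and NDUFA4 were the genes with intervals above 0, each with a single region. COX7C, a small structural subunit, was the highest of the complex, with 575 Luchuan and 695 Duroc reads, a log2 ratio of 0.30 (0.13 to 0.46). NDUFA4 had 794 and 971 reads, a log2 ratio of 0.28 (0.14 to 0.42). COX6C had 421 and 524 reads, a log2 ratio of 0.26 (0.07 to 0.44). NDUFA4L2, a relative of NDUFA4 that is induced by low oxygen in other cells, was the lowest and held the most reads. Its 5 regions had 1245 Luchuan and 2042 Duroc reads, a log2 ratio of -0.14 (-0.25 to -0.04). Of these regions, 3 also lay within 2 kb of STAC3, a gene of excitation-contraction coupling. The strongest, at the gene end, had 637 and 941 reads, a log2 ratio of 0.01 (-0.14 to 0.15). Only 2 regions of the gene had intervals below 0, at -0.46 and -0.50. Both were detected as peaks in Duroc alone, so their direction cannot be told apart from their detection. Leaving out regions near genes that are no members moved complex IV to 0.16. It stood at 0.04 with the factor that follows the signal, 0.03 over gene bodies alone and 0.04 within 5 kb, each less than the 0.049 from the value to its interval's bound, so the difference from 0 was then lost.

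The forms of a subunit were compared through their strongest regions. COX7A1, the heart and muscle form of subunit 7A, had 558 Luchuan and 887 Duroc reads, a log2 ratio of -0.10 (-0.25 to 0.06), and the form found in most tissues, COX7A2, had 448 and 553 reads, a log2 ratio of 0.27 (0.08 to 0.45). The difference, COX7A2 minus COX7A1, was 0.36 on the log2 scale (exact conditional interval for counting error, 0.12 to 0.61). The COX7A1 region also lies within 2 kb of CAPNS1 and ZNF146. COX8H, the muscle form of subunit 8, had 252 and 401 reads in its strongest region, a log2 ratio of -0.10 (-0.33 to 0.13), and 690 and 1020 reads in all 5 of its regions, a log2 ratio of 0.01 (-0.14 to 0.15). Of these 5 regions, 3 also lie within 2 kb of PSMD13, a proteasome subunit gene. The strongest is among them and is also counted for PSMD13 in the proteasome list below. COX6A1 and COX6B, the forms of subunits 6A and 6B of most tissues, had ratios of 0.14 (-0.09 to 0.36) and 0.11 (-0.13 to 0.35) in their strongest regions. NDUFA4 exceeded NDUFA4L2 by 0.27 (0.07 to 0.47). ATP5G1, ATP5G2 and ATP5G3 encode the same mature c subunit of the ATP synthase ring, and their log2 ratios were 0.14, -0.01 and 0.18. Of their 3 differences, the largest was that of ATP5G3 and ATP5G2, 0.20 (-0.03 to 0.42), and the intervals of all 3 included 0.

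Complex V had 15 genes and 28 regions with 8787 Luchuan and 12500 Duroc reads, a log2 ratio of 0.06 (0.02 to 0.10). With the factor that follows the signal it was 0.02, less than the 0.040 from the value to its interval's bound, and so not distinguishable from 0. ATP5A1, ATP5F1, ATP5G1, ATP5G3 and ATP5J had intervals above 0 at the strongest region, and no gene of the complex had one below. ATP5A1, the alpha subunit of the catalytic head, was the highest. It had 615 Luchuan and 755 Duroc reads, a log2 ratio of 0.27 (0.12 to 0.43). ATP5B, the catalytic beta subunit, had the most reads, 1067 and 1690 over 4 regions, a log2 ratio of -0.09 (-0.21 to 0.02), and its strongest region stood at 0.06 (-0.10 to 0.23). ATP5L, a subunit of the membrane part, was the lowest at -0.15 (-0.31 to 0.02). Counted with regions within 5 kb of the genes, complex V was at -0.005. Beside the subunits, ATP5S had 1000 Luchuan and 1335 Duroc reads in a single region, a log2 ratio of 0.15 (0.03 to 0.27), and ATP5SL had 4076 and 5591 reads in 30 regions, a log2 ratio of 0.11 (0.06 to 0.17). Without this pair, the remaining 69 genes had a summed log2 ratio of 0.02 (0.0003 to 0.04).

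Beside the strongest regions, the 71 genes had 122 weaker ones, with a median of 106 reads. Their median log2 ratio was -0.10, with 74 below 0 and 48 above, and over all genes such regions had a median of -0.03 with 52.3% below 0. The interval lay below 0 in 25 of the 122 regions, against 14.9% of such regions over all genes, and above 0 in 12, against 11.3%. Of the 122, 65 were detected as peaks in both breeds, 41 in Duroc alone and 16 in Luchuan alone. Over all genes these classes made up 44.6%, 36.0% and 19.4% of such regions. Regions detected in 1 breed alone were mostly higher in that breed, 35 of the 41 and 14 of the 16. Detection and direction are therefore not independent in these counts. The gene ATP5SL, whose annotated span of 158538 bases overlaps other genes, gave 29 of the 122 regions, and without them the median was -0.13, with 61 below 0 and 32 above. Of the 40 members with 2 or more regions, 28 had a strongest region with a higher ratio than the median of their other regions, which is the case in 56.3% of the 12530 genes with 2 or more regions. Ratios also shift with signal over all regions. In classes of 2 to 47, 48 to 99, 100 to 266 and 267 or more reads, the median of all regions was 0.31, -0.04, -0.10 and -0.02. The medians of the 21, 38, 33 and 101 member regions in these classes were 0.10, -0.16, -0.12 and 0.06.

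A 2-fold difference was reached in 9 member regions, 3 higher in Luchuan and 6 higher in Duroc. That is 3 and 6 of 193, against 7.5% and 5.26% of all regions in these directions. With the factor that follows the signal there were 3 and 10, and in unscaled reads 2 and 36. All 9 were weaker regions with 26 to 216 reads. In the highest quartile of reads, from 267 on, none of the 101 member regions differed 2-fold, against 2.79% of all regions there. The regions higher in Duroc lay at NDUFV3 and SDHB, described above, and at NDUFB1, NDUFA13, NDUFA12 and ATP5SL. NDUFB1, an accessory subunit, had a region inside the gene on chromosome 7 from 113653135 to 113653531 with 32 Luchuan and 161 Duroc reads, a log2 ratio of -1.73 (-2.36 to -1.21), while its strongest region stood at 0.05. It was the only one of the 9 that had been detected as a peak in both breeds. The others were each detected only in the breed where they were higher, so detection and direction cannot be told apart for them.

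NDUFA12 and NDUFA13 are accessory subunits as well. The regions of NDUFA13, NDUFA12 and ATP5SL had 18, 12 and 6 Luchuan reads and 79, 42 and 23 Duroc reads, with log2 ratios of -1.5, -1.16 and -1.21. That of NDUFA13 lay outside the gene, 1597 bases from its end, and within 2 kb of TSSK6. The ATP5SL region lay within 2 kb of CEACAM1. The 2-fold regions higher in Luchuan belonged to NDUFB5 and NDUFA9, both accessory subunits. NDUFB5 had a pair of narrow regions beyond its end with the higher coordinate, on chromosome 13. Between 117672584 and 117672786 there were 28 Luchuan and 8 Duroc reads, a log2 ratio of 2.26 (1.21 to 3.72), and between 117672848 and 117673007 there were 19 and 7 reads, a log2 ratio of 1.89 (0.70 to 3.5). NDUFA9 had a region inside the gene on chromosome 5 from 65760502 to 65760731 with 39 and 21 reads, a log2 ratio of 1.43 (0.66 to 2.30). The strongest regions of NDUFB5 and NDUFA9 stood at 0.14 and 0.09, and both of their intervals included 0.

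**Figure D3:**
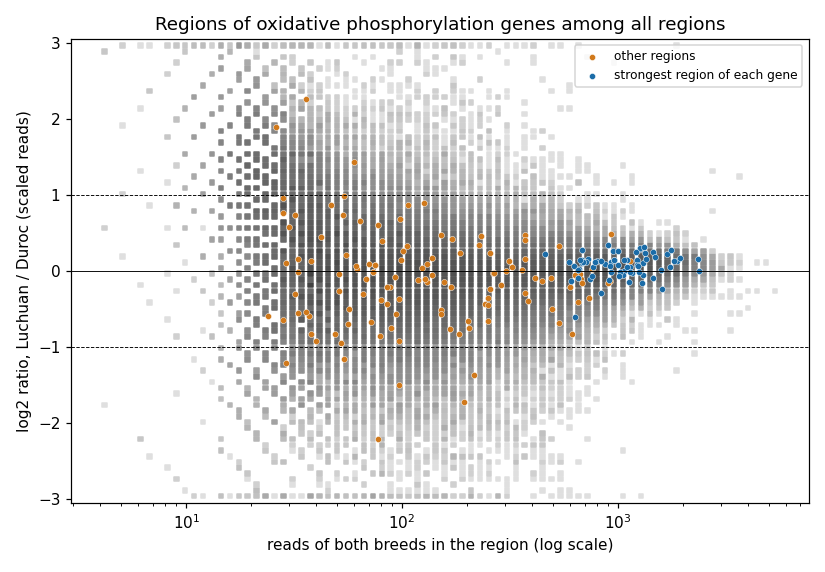
Each point is a region, with its reads over both breeds on the x axis (log scale) and the log2 ratio of Luchuan over Duroc reads after scaling on the y axis, where values beyond 3 are drawn at the edge. Grey squares are all 140081 regions, darker where there are more, and dashed lines mark 2-fold differences. The strongest regions of the 71 genes (blue) lie between -0.60 and 0.34, and the 9 member regions beyond the dashed lines are all weaker ones (orange).

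Many of the genes stand close to another gene. The strongest region lay within 2 kb of another protein-coding gene for 31 of 71 members (43.7%), against 29.1% of all genes and 34.3% of those whose strongest region had at least 761.5 reads. For these the reads cannot be assigned to either gene. ATP5J, a subunit of the ATP synthase stalk, shares its region with GABPA, the DNA-binding subunit of nuclear respiratory factor 2, a known activator of oxidative phosphorylation genes. This region had 834 Luchuan and 1104 Duroc reads, a log2 ratio of 0.17 (0.03 to 0.30). Some other partners serve mitochondria or protein synthesis, such as TIMM8B beside SDHD, MRPL47 beside NDUFB5, RPS28 beside NDUFA7 and EEF1B2 beside NDUFS1. The median log2 ratio was 0.05 for the 31 shared regions and 0.13 for the 40 others.

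Other genes used in nearly all cells gave close values. The 78 cytosolic ribosomal protein genes with a region had a median of 0.04 at the strongest region and a summed log2 ratio of 0.03 (0.01 to 0.05), and the 39 proteasome subunit genes had 0.10 and 0.03 (0.003 to 0.05). The 71 oxidative phosphorylation genes had 0.10 and 0.03 (0.01 to 0.05). The 30 assembly factors, which build the complexes, had a median of 0.17 and a summed log2 ratio of 0.13 (0.11 to 0.16), with 14 genes above 0 beyond counting error and 2 below, against 23.1% and 21.2% of all genes by the same summed interval. NDUFAF5, a complex I assembly factor, had 534 Luchuan and 617 Duroc reads, a log2 ratio of 0.36 (0.19 to 0.53). ACAD9 and FOXRED1, also complex I assembly factors, were at -0.21 (-0.37 to -0.05) and -0.18 (-0.31 to -0.05). By the same interval, 7 of 12 regulators were above 0 and 1, YY1, was below. GABPA is among the 7, and its strongest region is the one it shares with ATP5J, so it repeats the value of a member. In the same way, the strongest region of RPS28 in the ribosomal list is that of NDUFA7. PPARGC1A, the coactivator PGC-1alpha that drives mitochondrial biogenesis, had 59 regions with 6526 Luchuan and 7860 Duroc reads, a log2 ratio of 0.30 (0.25 to 0.35). TFAM, a transcription factor and packaging protein of mitochondrial DNA, had 683 and 833 reads, a log2 ratio of 0.28 (0.14 to 0.43).

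The contractile genes of both fiber types differed more than the oxidative phosphorylation genes. The 8 slow fiber markers had a summed log2 ratio of -0.31 (-0.36 to -0.27), with 6 genes below 0 beyond counting error, against 21.2% of all genes, and none above. The 9 fast fiber markers had -0.39 (-0.42 to -0.37), with 8 below and none above. MYH7, the slow myosin heavy chain, stood at -0.44 (-0.53 to -0.36) and MYH4, a fast myosin heavy chain, at -0.77 (-0.83 to -0.70). The median strongest region of both lists stayed below 0 under every scaling. Of the 7 muscle fiber markers, 2 were above 0 beyond counting error and 2 below, from CKM at -0.46 (-0.53 to -0.39) to MYF6 at 0.11 (0.01 to 0.20). The part of fiber type in the values of the oxidative phosphorylation genes was not tested.

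**Figure D4:**
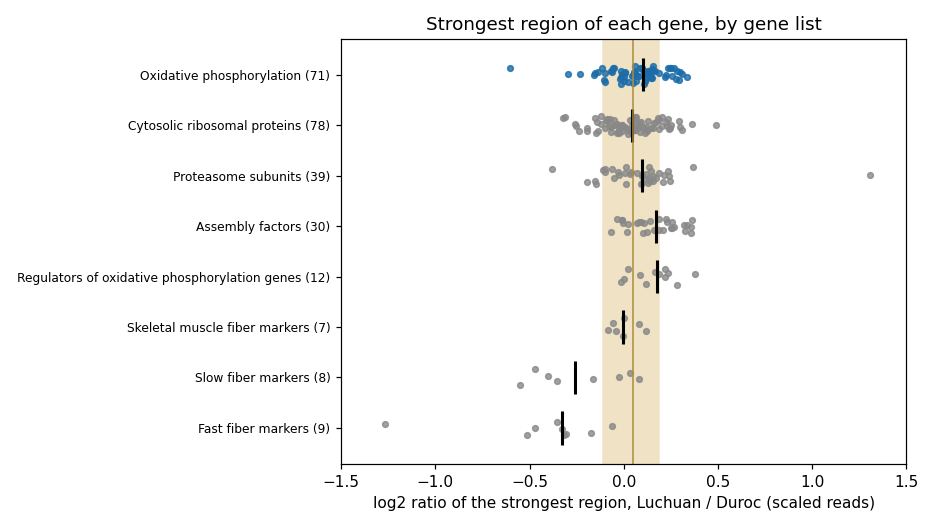
Each point is the strongest region of 1 gene, with the log2 ratio of Luchuan over Duroc reads after scaling on the x axis and the gene list, with its number of genes, on the y axis. The regions of ATP5J, NDUFA7 and COX8H are drawn again for GABPA, RPS28 and PSMD13. Black bars are medians, and the shaded band and line give the interquartile range, -0.11 to 0.19, and median, 0.05, of all 15924 genes with a region. The oxidative phosphorylation genes (blue) center on 0.10, the assembly factors and regulators on 0.17 and 0.18, and the slow and fast fiber markers on -0.26 and -0.32.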

How the data were processed

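ATAC-seq libraries of 3 Duroc and 3 Luchuan boars were analysed. RNA-seq values were not used. Read filtering by the authors used Trimmomatic (version 0.36), alignment to Sscrofa11.1 used Bowtie2, and MACS2 called the peaks. The counting tool, duplicate removal and pooling are not given in the sources used here. The authors deposited raw read counts, 1 per interval and breed, read here as pooled over boars. Their rescaled log2 values (fold change and average signal) and their p-value in the deposited table belong to their own comparison and were not used.

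Starts were read as counted from 0 and are given counted from 1. Common intervals that overlapped or adjoined were reduced to the longest of them, giving 140081 regions from 217213 intervals. A region belonged to every gene whose body plus 2 kb held its midpoint. Gene positions came from RefSeq for Sscrofa11.1, a Duroc assembly, without strand or exons, so promoters, introns and untranslated regions were not separated. The annotation gave no sequences, so the planned search for promoter motifs was not run.

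Genes named per complex had the most reads or the highest or lowest summed ratio among those with at least 100 reads, together with members with a 2-fold region and isoform families. A gene that this rule names in complex I is counted in all totals but is not reported here. Genes singled out for internal regions, shared regions or other lists (NDUFS6, NDUFA10, NDUFS4, NDUFC2, the X-linked genes and list examples) were chosen after their values were seen. The members and lists were chosen with earlier results of these data known. The code was tested on simulated counts. Intervals came from SciPy 1.17.1, tables from pandas 2.3.3 and NumPy 2.4.6 in Python 3.11.15, and plots from Matplotlib 3.10.9. Alternatives covered scaling, merging, window, read minimum, shared regions, pseudocount and complex membership.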

Additional observations from a re-analysis of the deposited data

How the results depend on the processing

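With 1 pooled count per breed, no alternative could leave out an animal. No paired analysis was possible because the counts of a breed are pooled and carry no replicate number. Of 123 values recomputed for 10 results under 14 alternatives, 94 stayed close to the reported value and 29 did not, close being within counting error for sums and within 1.5 times for counts and medians. Unscaled reads accounted for 9 of the 29. They moved the median of all regions to -0.57, that of the member regions to -0.56 and that of the strongest regions to -0.47, complexes I to V to -0.57, -0.71, -0.47, -0.50 and -0.51, cytochrome c to -0.44, and the member regions 2-fold higher in Duroc from 6 to 36. Those regions numbered 10 with the factor that follows the signal, 10 over every deposited interval and 12 within 5 kb. The member regions 2-fold higher in Luchuan went from 3 to 1 in gene bodies alone and within 1 kb, and to 5 within 5 kb. The median of the member regions, 0.0055 as reported, was 0.030 with scaling by total reads, 0.018 with the factor that follows the signal, 0.033 over every deposited interval, 0.046 in gene bodies, 0.047 within 1 kb, -0.039 within 5 kb, 0.0085 with a pseudocount of 0.5 and 0.0024 without ATP5S and ATP5SL, and that of the strongest regions was 0.065 within 5 kb. Complex I was at -0.036 and complex V at -0.0054 within 5 kb, complex II at -0.23 in gene bodies and -0.050 near gene ends, and complex IV at 0.16 without regions shared with other genes. Leaving out ATP5S and ATP5SL and all values for the strongest regions were added after the data were seen. Cytochrome c had no region in the gene body alone. The causes of these moves were not tested. Depth limits single regions. The strongest region of ATP5D, with the median of 1026 reads, has an interval of -0.20 to 0.17, and the spread between boars is unknown.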
